A study of Mus musculus with 6 samples.

Results

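Rod phototransduction and outer segment genes were followed here as a set of 36 genes, taken by symbol from a count table of 55573 genes. They were sorted into classes for the transduction cascade, its shutoff, disc structure, transcription factors, retinoid handling, protein trafficking and the matrix around the cells. All 36 symbols were found in the table, each once, and 35 of them had at least 1 count. The cells came from C57BL/6 mice in which both Myh9 and Myh10 were floxed in every animal, controls included. Eyes had received an intravitreal injection of AAV2-Cre (labelled Myh9/10 double knockout, here dKO, 3 libraries) or AAV2-GFP (labelled wild type, here WT, 3 libraries) 2 weeks before collection, and each library held 3 retinas of 3 mice. Cells labelled retinal ganglion cells, the output neurons of the retina, were purified by FACS and their total RNA was sequenced. No source used here gives the age of the mice, the promoter behind Cre or GFP, or the marker used for the sort. The label of the set holds in these libraries in so far as its defining genes Prph2 and Gnat1 had counts in all 6. The label of the cells is less well covered. A list of 24 ganglion cell markers, 23 of them with counts, summed to 272, 212 and 854 counts in dKO. In WT the list summed to 195, 150 and 183 counts, and only 6 of its genes could be tested. The ganglion cell gene Pou4f1 had 3, 1 and 9 counts in dKO and 1, 0 and 0 in WT. Slc17a6 had 7, 4 and 21 counts in dKO and 2, 1 and 2 in WT. These 2 genes do not stand for the direction of the list, as only 3 of its 6 tested genes had a positive log2 fold change of dKO over WT. Values by library are in the order of replicates 1 to 3 throughout.

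Rods are the photoreceptors of dim light and the most numerous neurons of the mouse retina. Light absorbed in the stacked membrane discs of the outer segment activates the G protein transducin, which turns on a phosphodiesterase that lowers cyclic GMP and so closes cation channels in the outer segment membrane. Arrestin, a receptor kinase, and calcium-controlled guanylate cyclases then end the response, while disc-rim proteins hold the discs in shape and retinoid carriers and enzymes help renew the pigment. Most of these genes are known mainly from photoreceptors, while Gnb1, Unc119 and Prom1 are made by many other cells.

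Counts totalled 4569880 to 5634316 in the dKO libraries and 4730540 to 6146226 in the WT libraries. A single ribosomal RNA row, CT010467.1, took 64.2% to 91.2% of them in dKO and 90.2% to 92.8% in WT. The remaining counts were 576060, 453327 and 1636581 in dKO and 499313, 346037 and 441118 in WT, so dKO replicate 3 was read more deeply than the others outside that row and its values have the smallest counting error. CPM below are counts scaled by TMM to a common library size. The targeted genes did not check the labels: Myh9 was at 62.7 ± 4.13 CPM in dKO and 64.2 ± 3.91 CPM in WT and Myh10 at 17.996 ± 3.39 CPM in dKO and 18.7 ± 2.08 CPM in WT (SD, n = 3 each). Their log2 fold changes were -0.04 ± 0.10 and -0.15 ± 0.14 (SE; edgeR adjusted p = 0.908 and 0.735). Counts over the whole gene include exons outside any floxed part. Libraries of a group are separate pools per the labels, but whether they share mice is not stated. The p-values set the group difference against the spread among these libraries only, and that spread is in part perhaps technical.

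Rod transcripts were more abundant in the dKO libraries. Summed over all 36 genes, whether or not they could be tested, they took 0.385%, 0.469% and 0.421% of the counts outside the ribosomal RNA row in dKO replicates 1 to 3, against 0.257%, 0.251% and 0.274% in WT replicates 1 to 3. In bulk RNA of this kind, more cells of a type and more RNA per cell cannot be told apart. The lowest dKO library was above the highest WT library, and the exact binomial 95% intervals of those libraries, which cover counting error only, were 0.369% to 0.401% in dKO replicate 1 and 0.259% to 0.290% in WT replicate 3. The mean shares were 0.425% ± 0.0423 in dKO and 0.261% ± 0.0118 in WT (SD, n = 3 each), a ratio of 1.63. With the ribosomal RNA row in the denominator the ratio was 3.66, in large part through dKO replicate 3. The shares were then 0.0393%, 0.0413% and 0.151% in dKO and 0.0253%, 0.0184% and 0.0197% in WT. Leaving out Gnb1, Unc119 and Prom1 gave 0.365% ± 0.0400 in dKO and 0.211% ± 0.00812 in WT, a ratio of 1.73. Within each library the 5 most abundant rod genes supplied 46.1% to 49.5% of all rod counts, and Rbp3, which carries retinoids between photoreceptors and the pigment epithelium, came first in every library.

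Gene by gene, 13 rod genes were higher in dKO and 0 were lower (edgeR quasi-likelihood test on the whole table, Benjamini-Hochberg adjusted p under 0.05 over 8444 genes), where 0.734% of all genes tested were called higher and 1.18% lower. At an unadjusted p under 0.05, 22 rod genes were higher and 0 lower, against 5.66% and 6.88% of all genes tested. The set was chosen with earlier results of these data known, so setting it beside all genes is description only. A minimum count decided which genes were tested, and 30 rod genes met it. Because a gene can meet it through the dKO libraries alone, the 22 that met it in every WT library were also counted alone. Of these, 12 were called higher, against 0.784% of the 6122 genes of the table that met it in the same way. Their median log2 fold change was 0.63 against -0.025 for those 6122 genes. With no minimum, 15 of the 35 rod genes with a count were called higher (0.38% of 21821 genes), with a median log2 fold change of 0.79, against 0.054 over all genes in that fit.

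The called genes came from 4 of the 7 functional classes. The transduction cascade had 4 called genes of 9 tested, and shutoff and calcium feedback 3 of 6 tested (8 listed). Disc structure had 4 of 6 tested (7 listed) and retinoid handling 2 of 2 tested (3 listed). Of 2 tested transcription factors (3 listed), 4 tested trafficking genes and 1 tested matrix gene (2 listed), 0 were called. Folds of the called genes ran from 1.49 for Rbp3 to 2.48 for Rp1l1. Every dKO library was above every WT library on scaled CPM in 20 of the 30 tested genes, including 12 called ones, against 8.66% of all genes tested. Among the dKO libraries, replicate 2 held the highest value for 20 of the 30 tested genes, replicate 3 for 7 and replicate 1 for 3. Among the WT libraries, replicate 3 held the highest for 20, replicate 2 for 7 and replicate 1 for 3. The calls of 8 of the 13 genes held in each of the 15 alternative fits: Prph2, Gnat1, Sag, Rom1, Pde6a, Pde6b, Abca4 and Rbp3. Without WT replicate 1 the count of called rod genes was 8, which is fewer by over 1.5 times (0.31% of all genes were then called higher), and with DESeq2 it was also 8 (0.234% of genes called higher).

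**Figure D1:**
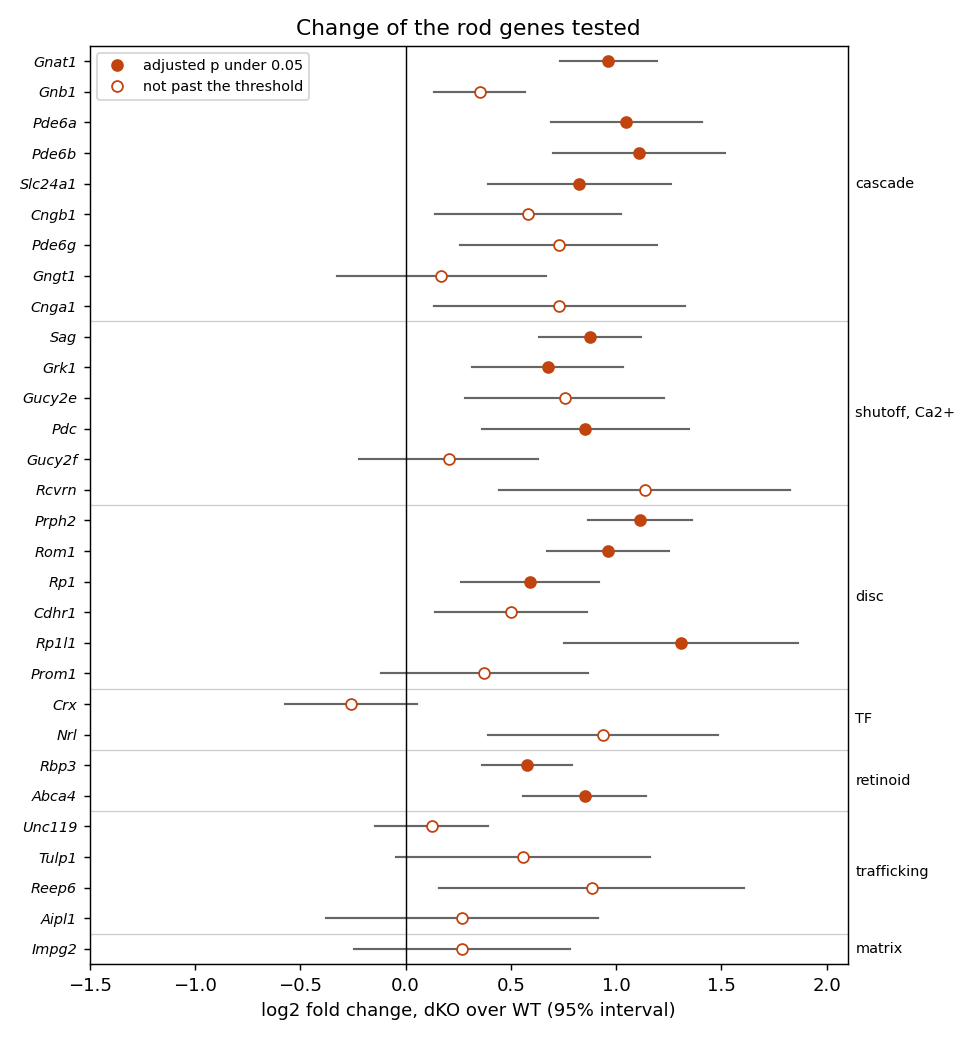
Log2 fold change of dKO over WT for the 30 rod genes tested, with 95% intervals from the edgeR fit, grouped by functional class (right); filled points passed an adjusted p of 0.05. The 13 filled points lie between 0.58 for Rbp3 and 1.31 for Rp1l1, and Crx is the only point below 0.

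**Figure D2:**
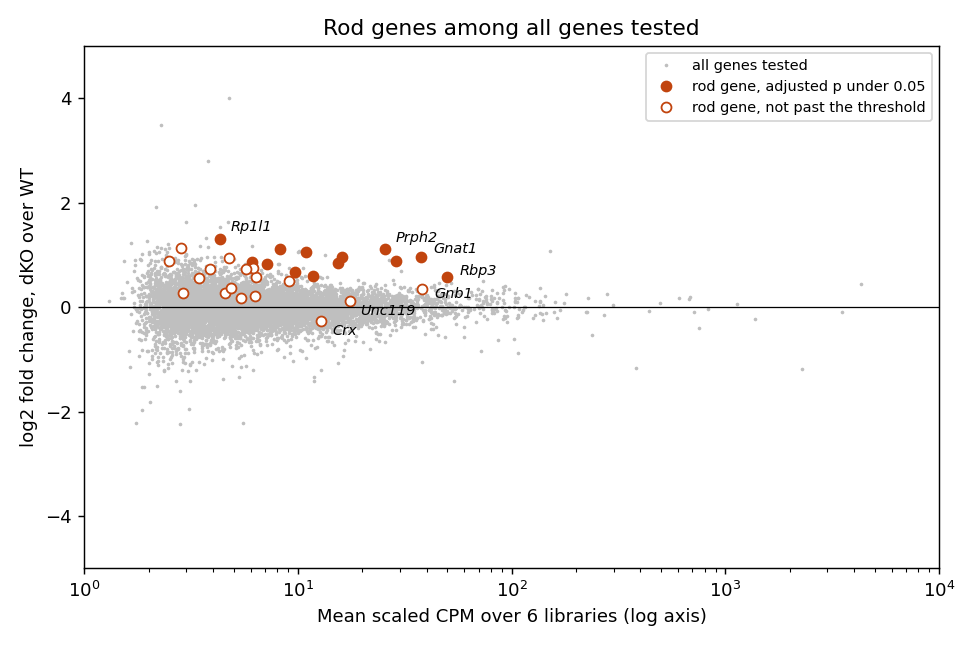
Log2 fold change of dKO over WT (y) against mean scaled CPM over the 6 libraries (x, log axis) for the genes tested; grey points are all genes and large points rod genes, filled where called. The called rod genes lie at the upper edge of the grey cloud or above it, while Crx and Unc119 lie inside it; 2 genes fall outside the plotted range.

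In the transduction cascade, the transducin alpha subunit and both catalytic phosphodiesterase subunits rose together. Gnat1 (ENSMUSG00000034837, chromosome 9, 107674474 to 107679712 in GRCm38), which encodes the rod transducin alpha subunit, was at 43.0, 59.2 and 47.2 CPM in dKO and 23.2, 26.9 and 26.0 CPM in WT. The lowest dKO value was well above the highest WT value, and the log2 fold change was 0.96 ± 0.12 (SE; adjusted p = 4.01e-09). Pde6a, a catalytic subunit of the rod phosphodiesterase, was at 12.9, 17.957 and 14.0 CPM in dKO and 6.77, 5.07 and 8.93 CPM in WT. Its partner Pde6b was at 13.2, 10.7 and 10.3 CPM in dKO and 5.03, 3.49 and 6.63 CPM in WT. The groups did not overlap for either, and the log2 fold changes of 1.05 ± 0.18 for Pde6a and 1.11 ± 0.20 for Pde6b (SE; adjusted p = 4.04e-05 and 0.000147) differed by less than their errors. Slc24a1, the exchanger that clears calcium from the rod outer segment, was at 9.40, 11.2 and 7.71 CPM in dKO and 5.24, 3.49 and 5.87 CPM in WT and rose by 0.83 ± 0.22 (adjusted p = 0.0219). Slc24a1 did not pass with DESeq2 (adjusted p = 0.193) or limma-voom (0.0792).

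Other cascade members had positive values that did not pass. The inhibitory phosphodiesterase subunit Pde6g was at 7.29, 8.01 and 6.46 CPM in dKO and 3.93, 3.80 and 4.85 CPM in WT, without overlap (0.73 ± 0.23; adjusted p = 0.0916). Cngb1 and Cnga1, the subunits of the cyclic GMP-gated channel, had log2 fold changes of 0.58 ± 0.22 and 0.73 ± 0.30 (adjusted p = 0.206 and 0.250), again with every dKO library above every WT library. Gnb1, the transducin beta subunit of rods that many other cells also use, was at 38.0, 44.4 and 45.1 CPM in dKO and 34.3, 30.1 and 35.7 CPM in WT (0.35 ± 0.11; adjusted p = 0.0690). Gngt1, the rod gamma subunit, was at 4.03, 8.01 and 5.29 CPM in dKO and 4.59, 6.65 and 3.83 CPM in WT. Its groups overlapped and its interval of -0.33 to 0.67 (log2) allows a rise smaller than that of Gnat1 as well as no change. The calls depended on single libraries for 2 of these genes: Slc24a1 did not pass without WT replicate 1 (adjusted p = 0.0945), WT replicate 2 (0.170) or dKO replicate 2 (0.0767), and Gnb1 passed without dKO replicate 1 (0.0251).

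**Figure D3:**
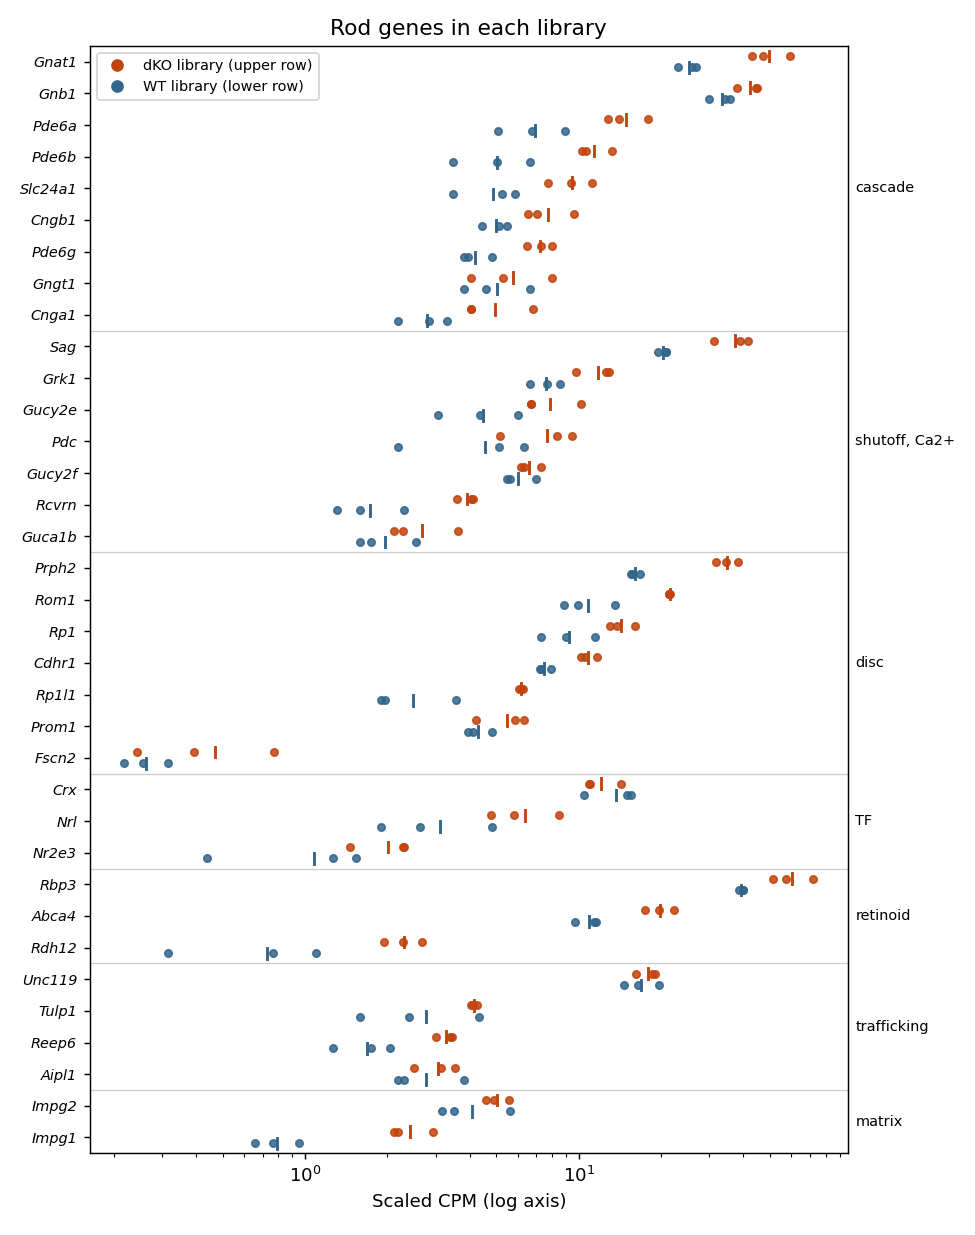
Scaled CPM (log axis) of the 35 rod genes with a count in each library, by functional class (right); points are libraries, dKO in the upper row of each gene and WT in the lower, and vertical ticks are group means. Gnat1, Sag, Prph2, Abca4 and Rbp3 show dKO points clear of the WT points, whereas those of Gngt1, Gucy2f, Unc119 and Crx mix.

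Among the genes that end the light response and adjust it to calcium, arrestin gave the clearest difference. Sag (ENSMUSG00000056055, chromosome 1, 87803680 to 87845158), the rod arrestin that caps the activated pigment, was at 31.3, 41.5 and 38.9 CPM in dKO and 19.4, 20.9 and 20.9 CPM in WT. The WT values lay close together and the dKO values far above them (0.87 ± 0.12; adjusted p = 2.65e-07). Grk1, the kinase that phosphorylates the activated pigment, was at 9.79, 12.6 and 12.9 CPM in dKO and 7.65, 8.55 and 6.63 CPM in WT (0.67 ± 0.18; adjusted p = 0.0226). Pdc, phosducin, which binds the beta and gamma subunits of transducin, was at 5.18, 9.46 and 8.36 CPM in dKO and 2.19, 6.34 and 5.10 CPM in WT. Its lowest dKO value was below the highest WT value, so this was the one called rod gene whose groups overlapped (0.85 ± 0.25; adjusted p = 0.0462). Neither Grk1 nor Pdc passed with DESeq2 (adjusted p = 0.399 and 0.9996) or with limma-voom (0.0536 and 0.0885).

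Recoverin and the guanylate cyclases did not pass. Rcvrn, recoverin, the calcium sensor that restrains the kinase, was at 4.03, 4.13 and 3.59 CPM in dKO and 1.31, 1.58 and 2.30 CPM in WT, a log2 fold change of 1.14 ± 0.35 on few counts (adjusted p = 0.0690). The cyclase Gucy2e was at 6.72, 10.2 and 6.73 CPM in dKO and 4.37, 6.02 and 3.06 CPM in WT (0.76 ± 0.24; adjusted p = 0.0818). The second cyclase, Gucy2f, was at 6.14, 6.31 and 7.31 CPM in dKO and 5.46, 6.97 and 5.61 CPM in WT. Its groups overlapped and its log2 fold change was 0.20 ± 0.21 (interval -0.22 to 0.63; adjusted p = 0.766). Of the proteins that activate the cyclases, Guca1b was too sparse to test, with 11, 15 and 35 counts in dKO and 8, 5 and 10 in WT, and Guca1a was listed at 0 in all 6 libraries, which allows up to 3 counts in each. Calls changed with single libraries for Grk1 (adjusted p = 0.128 without WT replicate 1, 0.138 without WT replicate 3 and 0.288 without dKO replicate 3), for Pdc (0.549 without WT replicate 1, where its log2 fold change was 0.46, 0.0979 without dKO replicate 2 and 0.279 without dKO replicate 3) and for Gucy2e, which passed without WT replicate 2 (0.0323).

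The disc genes held the smallest p of the set. Prph2 (ENSMUSG00000023978, chromosome 17, 46910459 to 46924933), the tetraspanin that shapes the disc rim, was at 31.9, 38.3 and 34.6 CPM in dKO and 15.7, 15.5 and 16.8 CPM in WT. All 3 dKO values were far above the WT values (1.11 ± 0.12; adjusted p = 4.88e-10). Rom1 (ENSMUSG00000071648, chromosome 19, 8927391 to 8929356), the related tetraspanin that assembles with it, was at 21.5, 21.6 and 21.5 CPM in dKO and 13.5, 8.87 and 9.95 CPM in WT. The dKO values were nearly identical to each other, and the log2 fold change of 0.96 ± 0.14 (adjusted p = 2.12e-06) was close to that of Prph2. The ratio of Rom1 to Prph2 counts within a library, with 0.5 added to each, was 0.676, 0.565 and 0.621 in dKO replicates 1 to 3 and 0.862, 0.576 and 0.594 in WT replicates 1 to 3, and the groups overlapped (exact permutation p = 0.8, two-sided; the ratio was chosen after its values were seen).

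Transcripts of the axonemal genes Rp1l1 and Rp1 also passed, Rp1 in only 7 of the 15 alternative fits. Rp1l1 was at 6.14, 6.07 and 6.27 CPM in dKO and 1.97, 1.90 and 3.57 CPM in WT, the largest change among the 30 tested genes (1.31 ± 0.28; adjusted p = 0.00164), from 32, 25 and 96 counts in dKO and 9, 6 and 14 in WT. It did not meet the minimum count in every WT library, and it did not pass with DESeq2 (adjusted p = 0.0648). In the fit with no minimum, Impg1 (1.75) and Rdh12 (1.59) had larger log2 fold changes than Rp1l1 (1.34). Its relative Rp1, which organises the microtubules along which discs are stacked, was at 13.1, 16.0 and 13.8 CPM in dKO and 8.96, 7.29 and 11.5 CPM in WT (0.59 ± 0.16; adjusted p = 0.0348). Cdhr1, a cadherin at the site of disc formation, was at 10.6, 11.6 and 10.2 CPM in dKO and 7.21, 7.29 and 7.91 CPM in WT, without overlap but not past the threshold (0.50 ± 0.18; adjusted p = 0.166). Prom1, prominin, which is also made by other cells, had a log2 fold change of 0.37 ± 0.25 (adjusted p = 0.576) with overlapping groups. An exon of Prom1 overlaps the gene Gm16401 on the opposite strand, whose reads cannot be told apart because the strand setting of the counting is not given. Fscn2, an actin-bundling protein, had 4, 1 and 6 counts in dKO and 1, 1 and 1 in WT and was not tested. Rp1l1 did not pass without WT replicate 1 (adjusted p = 0.0627), and the call of Rp1 was lost on leaving out dKO replicate 2 (0.0955), dKO replicate 3 (0.0989), or either of WT replicates 1 and 2 (0.223 and 0.237).

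Both tested retinoid genes rose. Rbp3 (ENSMUSG00000041534, chromosome 14), the most abundant rod gene by counts, was at 57.2, 72.1 and 51.3 CPM in dKO and 39.8, 38.7 and 39.8 CPM in WT. The WT values lay close together and the dKO values, though spread, were all higher (0.58 ± 0.11; adjusted p = 0.000183). Abca4 (ENSMUSG00000028125, chromosome 3), which moves retinoid across the disc membrane, was at 17.5, 22.3 and 19.7 CPM in dKO and 11.6, 11.4 and 9.69 CPM in WT (0.85 ± 0.15; adjusted p = 4.36e-05). Rdh12, a retinol dehydrogenase of the inner segment, was not tested, with 14, 8 and 35 counts in dKO and 5, 1 and 3 in WT.

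No transcription factor passed. Nrl, which sets rod rather than cone fate, was at 4.80, 8.49 and 5.81 CPM in dKO and 2.62, 1.90 and 4.85 CPM in WT. One WT value was above the lowest dKO value, and Nrl did not pass (0.94 ± 0.27; adjusted p = 0.0513), although it did in 7 of the 15 alternative fits, among them those without WT replicate 3 (0.00803) or dKO replicate 1 (0.0238). Nr2e3, its target and partner in repressing cone genes, had 12, 6 and 35 counts in dKO and 2, 4 and 6 in WT and was not tested, and one of its exons overlaps Gm15507 on the same strand. Crx, which is active in rods, cones and bipolar cells, was at 10.9, 14.3 and 10.970 CPM in dKO and 15.1, 10.5 and 15.6 CPM in WT. It was the only tested member with a negative value (-0.26 ± 0.16; adjusted p = 0.518), and its interval of -0.57 to 0.05 (log2) lies below the interval of Gnat1 (0.73 to 1.19).

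Trafficking and matrix genes were sparse, apart from Unc119. Unc119, a carrier of lipid-modified proteins such as transducin that many tissues express, was at 18.6, 16.3 and 19.1 CPM in dKO and 14.6, 16.5 and 19.6 CPM in WT, with mixed values (0.12 ± 0.13; interval -0.14 to 0.39; adjusted p = 0.776). Reep6, a membrane trafficking protein of rods, was at 3.45, 3.40 and 3.00 CPM in dKO and 1.75, 1.27 and 2.04 CPM in WT, without overlap (0.88 ± 0.36; adjusted p = 0.251). Tulp1, which takes part in transport to the outer segment, was at 4.03, 4.13 and 4.24 CPM in dKO and 2.40, 1.58 and 4.34 CPM in WT, where 1 WT library exceeded all dKO libraries (0.56 ± 0.30; adjusted p = 0.455). Aipl1, the chaperone of the phosphodiesterase, had a log2 fold change of 0.27 ± 0.32 (adjusted p = 0.801) and overlapping groups. Impg2, a proteoglycan of the interphotoreceptor matrix, was at 4.61, 5.58 and 4.90 CPM in dKO and 3.50, 3.17 and 5.61 CPM in WT (0.27 ± 0.26; adjusted p = 0.746). Its relative Impg1 did not meet the minimum count, with 11, 9 and 45 counts in dKO and 3, 3 and 3 in WT; in the fit with no minimum its adjusted p was 0.0295.

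Levels between genes were compared per kilobase of annotated exon, which understates genes with long, rarely used exons. On this scale Gnat1 had the highest mean in both groups, at 16.4 CPM per kb in dKO and 8.38 CPM per kb in WT. In dKO it was followed by Rom1 (14.2), Prph2 (11.6), Rbp3 (11.4) and Gnb1 (9.96 CPM per kb). In WT the order after Gnat1 was Gnb1 (7.82), Rbp3 (7.44), Rom1 (7.11), Unc119 (6.91) and Prph2 (5.34 CPM per kb). The broadly expressed Gnb1 thus stood at rank 5 in dKO and rank 2 in WT, and Prph2 at rank 3 in dKO and rank 6 in WT. Neighbouring ranks were not tested against each other.

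Promoter sequence is shown for the 4 called genes with the smallest p among those with a promoter in the RefSeq table (GRCm38.p6). They were picked for being called, so their shared direction follows from the choice. Of the 36 genes, 28 were matched to a promoter. Each run covers 250 bases before to 50 after the transcription start, 5′ to 3′ on the strand of the gene. Capitals mark the Crx core motif TAATCC and TGCTGA, part of the site bound by Nrl, searched on both strands (GGATTA and TCAGCA in reverse).
Prph2, chr17:46910228-46910527, plus strand: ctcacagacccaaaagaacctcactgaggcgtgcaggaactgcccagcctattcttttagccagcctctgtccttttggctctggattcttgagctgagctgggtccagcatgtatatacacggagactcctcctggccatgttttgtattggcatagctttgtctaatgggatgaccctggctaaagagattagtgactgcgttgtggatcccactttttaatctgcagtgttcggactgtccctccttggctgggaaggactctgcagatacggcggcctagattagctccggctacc
Sag, chr1:87803430-87803729, plus strand: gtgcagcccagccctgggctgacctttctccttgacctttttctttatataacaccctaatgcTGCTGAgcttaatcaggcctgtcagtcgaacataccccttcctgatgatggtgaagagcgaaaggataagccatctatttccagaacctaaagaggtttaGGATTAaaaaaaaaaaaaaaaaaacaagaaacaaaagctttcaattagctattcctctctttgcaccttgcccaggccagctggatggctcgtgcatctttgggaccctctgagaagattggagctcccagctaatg
Rom1, chr19:8929307-8929606, minus strand: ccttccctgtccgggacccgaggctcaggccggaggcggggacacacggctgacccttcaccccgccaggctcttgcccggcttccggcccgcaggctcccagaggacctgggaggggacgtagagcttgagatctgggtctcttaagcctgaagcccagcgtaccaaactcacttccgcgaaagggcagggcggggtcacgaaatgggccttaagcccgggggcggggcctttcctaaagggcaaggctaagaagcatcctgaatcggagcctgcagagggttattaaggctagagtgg
Abca4, chr3:122044210-122044509, plus strand: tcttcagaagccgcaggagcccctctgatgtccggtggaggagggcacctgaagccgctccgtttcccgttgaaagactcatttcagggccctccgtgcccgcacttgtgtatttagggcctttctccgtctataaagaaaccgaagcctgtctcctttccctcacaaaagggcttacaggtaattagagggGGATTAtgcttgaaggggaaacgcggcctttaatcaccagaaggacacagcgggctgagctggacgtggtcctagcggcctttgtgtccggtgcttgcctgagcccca
Sag holds TGCTGA with its first base 187 bases before the start and a reversed TAATCC 87 bases before it, and Abca4 a reversed TAATCC 58 bases before its start. Neither string is present in these windows of Prph2 and Rom1, which says nothing about binding there. Over the 28 rod promoters, counting the first listed promoter of each gene, 11 (39.3%) held TAATCC, against 7.16% of 27025 promoters in the table. TGCTGA was in 6 (21.4%), against 19.1% of all promoters. Among called genes, 3 of 9 promoters held TAATCC and 4 of 9 TGCTGA; among the other rod genes the counts were 8 of 19 and 2 of 19. These matches describe letters in a window and were not tested.

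A list of 42 further photoreceptor genes, which includes genes shared with other retinal cells, was read beside the rod set. Of 25 tested, 2 rose and 0 fell, where 0.734% of all genes tested were called higher and 1.18% lower. There were 12 positive values and the median log2 fold change was -0.01. With no minimum count the median was 0.21, against 0.054 over all genes. Of the 42, 10 had every dKO library above every WT library and 3 the reverse (6% and 5.27% of all genes with a count). The list took 0.273% ± 0.0128 in dKO and 0.273% ± 0.00215 in WT (SD, n = 3 each) of the counts outside the ribosomal RNA row. Otx2, which is in this list and in that of bipolar cells, had -0.34 ± 0.20 (adjusted p = 0.502).

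The summed cone and bipolar marker counts were lower in dKO, although most of their tested genes did not pass. Cone markers, all 12 of which had counts, took 0.0251% to 0.0318% in dKO and 0.0384% to 0.0399% in WT, and bipolar markers, all 19 of which had counts, 0.165% to 0.174% in dKO and 0.224% to 0.230% in WT. Of 4 tested cone markers 1 fell, and of 15 tested bipolar markers 4 fell; 0 rose in either list, where 1.18% of all genes tested were called lower. Gnat2, the cone transducin alpha subunit, had a log2 fold change of -1.41 ± 0.34 (adjusted p = 0.00762; 0.108 with DESeq2). The bipolar genes Prkca (-0.79 ± 0.12), Trpm1 (-0.57 ± 0.10), the channel that glutamate signalling closes in ON bipolar cells, Gpr179 (-0.66 ± 0.12) and Grm6 (-0.67 ± 0.19), the glutamate receptor of those cells, had adjusted p of 4.25e-06, 5.23e-05, 9.00e-05 and 0.0351. Within a library, where scaling plays no part, the ratio of Gnat1 to Gnat2 counts, with 0.5 added to each count, was 34.5, 19.6 and 32.2 in dKO replicates 1 to 3, against 5.46, 5.52 and 5.86 in WT replicates 1 to 3. The difference of 2.31 in log2 ratio had a two-sided exact permutation p of 0.1, the smallest that 3 against 3 libraries allow, and rests on 6, 12 and 22 counts in dKO and 19, 15 and 17 in WT for Gnat2. Against Prkca, a kinase of rod bipolar cells, the ratio of Gnat1 was 2.69, 3.98 and 2.87 in dKO and 0.955, 0.905 and 0.872 in WT, a log2 difference of 1.78 (two-sided exact permutation p = 0.1). No ratio of one group overlapped with the other.

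Gnb1, shared with many cells, and Crx, shared with cones and bipolar cells, were also set against Gnat1 within each library. The ratio of Gnb1 to Gnat1 was 0.884, 0.751 and 0.954 in dKO and 1.48, 1.12 and 1.37 in WT (log2 difference -0.61), and that of Crx to Gnat1 was 0.256, 0.243 and 0.233 in dKO and 0.653, 0.392 and 0.600 in WT (log2 difference -1.13). Groups did not overlap for either ratio (two-sided exact permutation p = 0.1 each, over 5 ratios computed in all, with Benjamini-Hochberg adjusted p = 0.125). These 2 ratios were chosen after their values were seen.

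**Figure D4:**
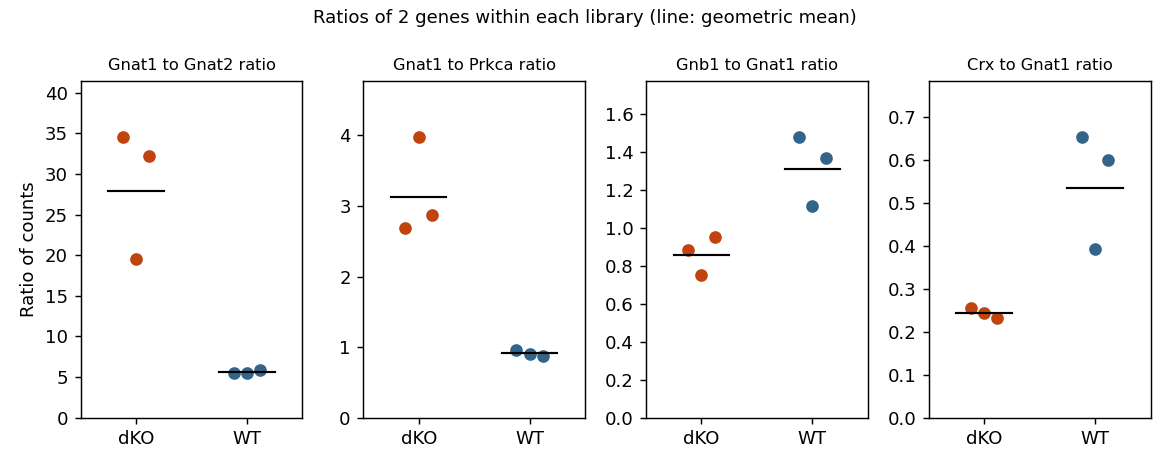
Ratio of the counts of 2 genes within each library (linear axes from 0); points are libraries, 3 dKO on the left and 3 WT on the right of each panel, and lines are geometric means. The Gnat1 to Gnat2 ratio is 19.6 or more in dKO and 5.86 or less in WT, while the Gnb1 and Crx to Gnat1 ratios are lower in dKO.

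Markers of other cells that the sort could hold were read beside these values. Müller glia and astrocyte markers took 3.80% to 4.09% in dKO and 3.67% to 3.80% in WT, microglia and macrophage markers 0.862% to 0.922% in dKO and 0.813% to 0.876% in WT, and amacrine and horizontal cell markers 0.0502% to 0.0560% in dKO and 0.0489% to 0.0543% in WT, with overlapping groups in each. These lists had 19, 19 and 3 tested genes, and in each 1 was called, higher, where 0.734% of all genes were: Gfap (0.69 ± 0.12; adjusted p = 4.04e-05), Lyz2 (0.50 ± 0.10; 0.000392) and Slc6a9 (1.96 ± 0.38; 0.000316), while Slc18a3, Th and Onecut1 were at 0 in all libraries. Slc6a9 did not meet the minimum count in every WT library. The 2 amacrine and horizontal cell markers that did had a median log2 fold change of -0.18. Ganglion cell markers took 0.0468% to 0.0522% in dKO and 0.0391% to 0.0433% in WT, higher in dKO without overlap. Atoh7 was at 0 in all libraries, and 1 of 6 tested genes was called higher (Nefl, 1.63 ± 0.28; adjusted p = 3.96e-05). Nefl did not meet the minimum count in every WT library. The 3 ganglion cell markers that did had a median log2 fold change of -0.43. Of the 24 listed, 7 had every dKO library above every WT library on scaled CPM and 2 the reverse. Those shares were 6% and 5.27% over all genes with a count. Pigment epithelium markers took 0.0231% to 0.0265% in dKO and 0.0270% to 0.0303% in WT, lower in dKO without overlap. Tyrp1 was at 0 in all libraries and Rpe65 had 1 count in all. The tested genes Rrh and Ezr had log2 fold changes of -0.26 ± 0.14 and -0.17 ± 0.17 (adjusted p = 0.449 and 0.763). The part of any of these cells in the rod values was not tested. When dKO replicate 3, in which ribosomal RNA took the smallest share, was left out, 10 rod genes were called higher (0.577% of genes tested) and the median log2 fold change of the 31 rod genes then tested was 0.72.

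**Figure D5:**
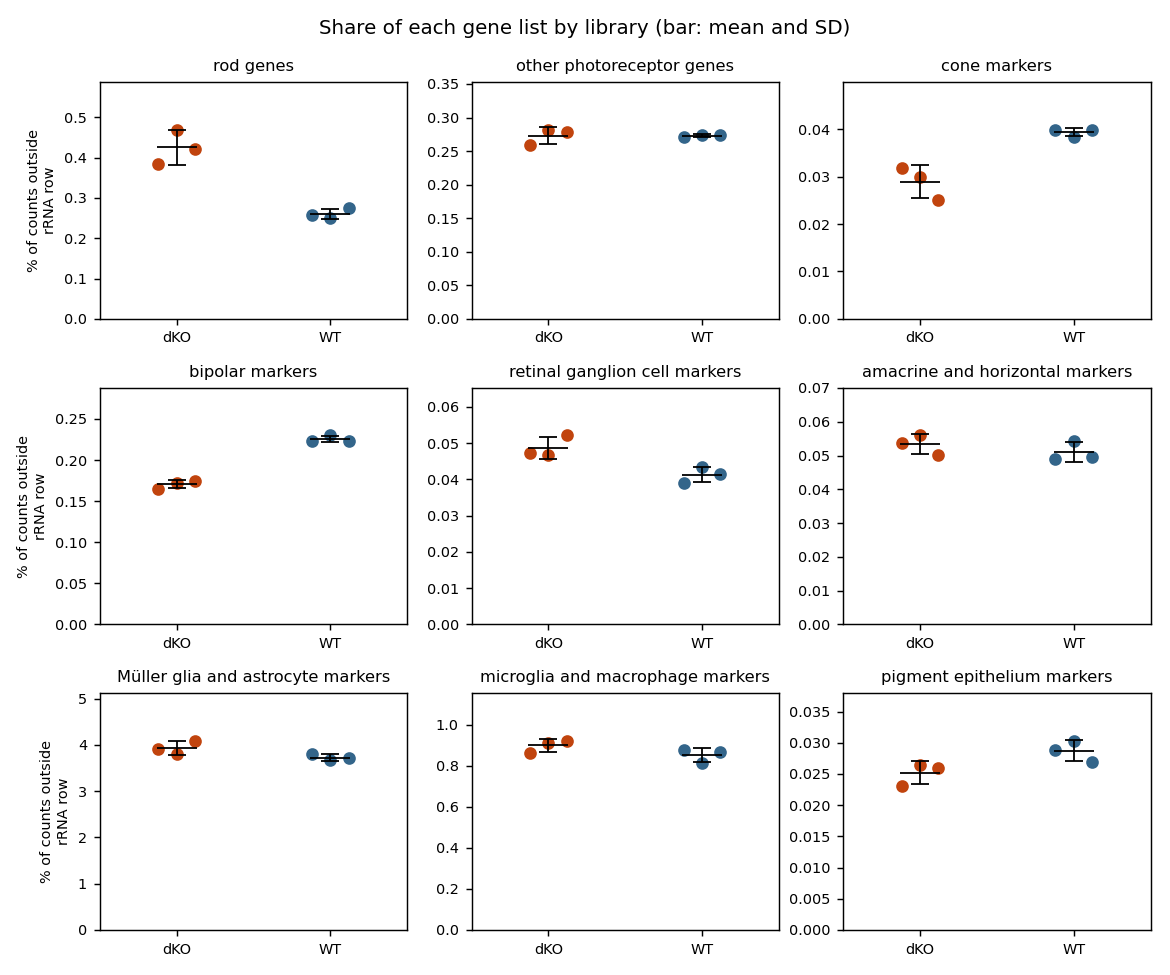
Share of the counts outside the ribosomal RNA row taken by the rod genes and 8 other lists, in percent (linear axes from 0); points are libraries (replicates 1 to 3 from left to right), bars are means and SD. Rod genes are higher in dKO (0.385% to 0.469%, against 0.251% to 0.274% in WT), cone and bipolar markers are lower, and the other photoreceptor genes overlap.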

How the data were processed

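Whole-number counts per gene were deposited by the authors in a table of 6 libraries and are used unchanged; the submitters' processing notes name GRCm38, DESeq2 1.22.2 and the aligner STAR 2.7.0d. No source used here names the counting program or its strand setting. The members and lists were chosen with earlier results of these data known. Genes were kept by filterByExpr (minimum count 10, total 15) and given TMM factors, and edgeR 4.0.16 was run with its quasi-likelihood test (R 4.3.3; group only; two-sided; Benjamini-Hochberg over all genes; threshold 0.05). The SE is the log2 fold change over the square root of F. The scripts were tested on simulated data. Alternatives were RLE and upper-quartile scaling, no filter, a filter at 1 CPM in 3 libraries, DESeq2 1.42.0, limma-voom 3.58.1, a replicate block, no ribosomal RNA row, dKO replicate 3 thinned, and each library left out. Values in every library are given for called members and for at least the 2 smallest p in each class. From the other lists up to 4 called genes, by smallest p, or else the 2 smallest p, are named. The 2 called genes of the further photoreceptor list are not named, and some genes, such as Otx2, Pou4f1 and Slc17a6, are given outside this rule. Ensembl IDs and coordinates are those of GENCODE M21 (GRCm38). Protein sequences were not used here. Some genes of the lists are not reported here.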

Additional observations from a re-analysis of the deposited data

How the results depend on the processing

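Rod genes were never called lower in any fit run. With DESeq2, 8 rod genes were called higher, 32 genes in all were higher and 43 lower, and 1 other photoreceptor gene was higher, as it was when dKO replicate 3 was thinned. Leaving out 1 library at a time gave 8 to 15 rod genes higher (8 without WT replicate 1), 29 to 71 genes higher in all, 61 to 115 lower, and 1 to 2 other photoreceptor genes higher. With the ribosomal RNA row in the denominator, the ratio of mean rod shares was 3.66 in place of 1.63; that row took 64.2% of dKO replicate 3. The log2 difference in the Rom1 to Prph2 ratio was 0.082 without WT replicate 1, -0.21 at the other end of the range with 1 library left out, and -0.11 with all libraries; the cause was not tested. The ratios of Crx and Gnb1 to Gnat1 and of Rom1 to Prph2 were added after seeing the data. With the replicate number as a block, 12 rod genes were called higher, and 58 genes higher and 100 lower in all; Pdc (adjusted p = 0.0660) and Rp1 (0.0563) did not pass and Gucy2e (0.0420) did. Libraries with the same number had deviations correlated at 0.0129 to 0.0287, too low to pair them, although each correlated best with its own number. Nrl passed in 7 of the 15 fits, with adjusted p between 0.00803 and 0.0496, and its adjusted p reached 0.430 with DESeq2. Of the values of single genes and added ratios under other settings, 434 kept direction and, for genes, stayed called or stayed not called. Among the gene values 28 lost a call and 11 gained one, and 1 ratio value turned sign. As 17 of the 30 tested genes were not called in the main fit, the 434 do not measure how stable the 13 calls were. The 6 rod genes not tested had too few counts for the minimum.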
